A study of Mus musculus with 8 samples.

Results

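The 10 genes described here, Ttr, Folr1, Kl, Otx2, Prlr, Clic6, Aqp1, Sostdc1, Enpp2 and Slc4a5, are known for their expression in the choroid plexus and were picked by symbol. Each symbol had 1 row among the 54532 genes of the deposited table, all 10 are protein-coding, and gene spans below are those of that table (mm10). Brain tissue came from male mice aged 3 months, wild type (WT) or knockout for Nsun5 (Nsun5-KO, here KO), an enzyme that methylates a cytosine of ribosomal RNA. Per the protocol 5 mice of each genotype came from 1 litter and all mice were anaesthetised with pentobarbital sodium, and the knockout allele and the strain are not given in the sources used here. Each genotype had 4 ribosome profiling libraries, made from RNA pieces that ribosomes protect during nuclease digestion (footprints), and 4 mRNA libraries with the same names. Which animal a library came from is not given, so the tests below measure the spread between libraries, which may be technical.

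The choroid plexus is a sheet of secretory epithelium in the brain ventricles that makes the cerebrospinal fluid. Its cells move ions and water across their membranes, carry hormones and vitamins between blood and fluid, and release signalling proteins. Transthyretin is its best known product. In bulk tissue, fewer cells of a type and less RNA per cell cannot be told apart.

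Depth differed between the library kinds. The mRNA libraries held 15642086 to 17829523 counts assigned to genes, and the footprint libraries 586392 to 3493841, of which 232530 to 1467410 lay on protein-coding genes. Nsun5 mRNA did not separate the labels, with 82 to 109 counts in WT and 83 to 124 in KO. On the first principal component of mRNA (29.9% of the variance), WT libraries 1 and 2 stood at 28.4 and 27.0 and the other 6 libraries between -15.9 and -5.80.

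RefSeq promoter windows on GRCm38.p6, the assembly behind mm10, were at hand for 5 of the 10 genes. The 250 bases before a transcription start are shown for Kl and Aqp1, whose mRNA followed that of Ttr across libraries, and for 1 of the 4 listed starts of Otx2, whose mRNA did not. Capitals mark the letters TAATCC or their complement GGATTA, the core bound by the homeodomain protein OTX2, and lower case marks all other bases. The sequences run 5′ to 3′ on the strand of the gene.
Kl, chr5:150952357-150952606, plus strand: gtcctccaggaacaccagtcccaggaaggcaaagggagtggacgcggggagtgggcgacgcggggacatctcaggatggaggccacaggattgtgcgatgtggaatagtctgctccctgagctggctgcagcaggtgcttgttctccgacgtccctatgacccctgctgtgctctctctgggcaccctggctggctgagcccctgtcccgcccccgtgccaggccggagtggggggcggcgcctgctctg
Aqp1, chr6:55336049-55336298, plus strand: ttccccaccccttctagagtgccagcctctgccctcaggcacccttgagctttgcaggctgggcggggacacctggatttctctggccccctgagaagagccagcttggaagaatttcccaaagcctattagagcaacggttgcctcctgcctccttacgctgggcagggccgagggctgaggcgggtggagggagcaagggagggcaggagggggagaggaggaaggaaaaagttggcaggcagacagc
Otx2, chr14:48665110-48665359, minus strand: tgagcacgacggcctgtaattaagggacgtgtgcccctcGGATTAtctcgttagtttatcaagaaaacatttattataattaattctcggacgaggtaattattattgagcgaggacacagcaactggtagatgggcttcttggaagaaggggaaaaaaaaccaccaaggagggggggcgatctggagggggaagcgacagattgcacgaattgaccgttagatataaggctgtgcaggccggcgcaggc
The core occurred on either strand in 1 of the 10 windows of these 5 genes, the Otx2 window shown, where it began 211 bases before the start. Among all 32851 windows of this length, 6.25% held it. A match in letters is a description and not a binding site.

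Choroid plexus mRNA differed widely among the libraries of each genotype, most of all in KO, and no gene passed the test between the genotypes. The 10 genes together made up 0.0286% to 0.182% of the mRNA counts of a library. KO library 1 had the highest level of 4 of them (Ttr, Folr1, Aqp1 and Slc4a5), and KO library 4 the lowest level of 8, the exceptions being Clic6 and Otx2. By edgeR's quasi-likelihood test with Benjamini-Hochberg adjustment, 0 of the 8 genes whose mean RPKM, a count scaled by gene length and library size, reached 1 passed an adjusted p of 0.05, as did 0% of all 13058 genes tested. At an unadjusted p under 0.05 there was 1 (Clic6) of the 8 against 10.5% of all genes. DESeq2 also called 0 of the 8, but it gave no adjusted p for Folr1, Otx2, Aqp1 and Sostdc1 and so could not call them. Estimates of the 8 were below 0 in 8 cases, against 51.4% of all genes, with a median log2 fold change of -0.77 against -0.0053. Here and in the counts of signs below, genes of a list share the same libraries. They may rise and fall together, as most members did, and do not count as independent observations. Without KO library 1 the median was -1.81, without KO library 4 it was -0.44, and without WT libraries 1 and 2 it was -0.26.

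**Figure D1:**
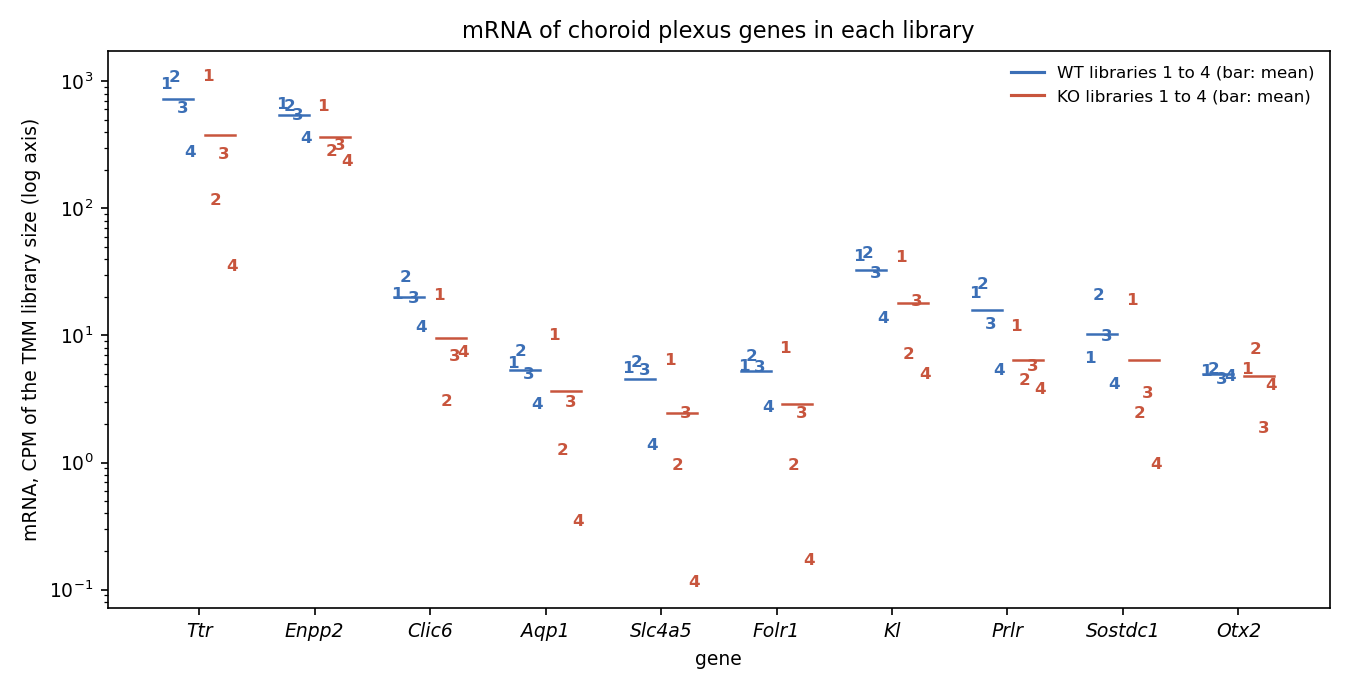
mRNA level of each choroid plexus gene in CPM (counts scaled to a common library size with TMM factors) on a log axis, where each digit is the number of a library (blue WT, red KO) and each bar a group mean of 4 libraries. KO library 1 lies highest for 4 genes, and KO library 4 lies lowest for 8 of the 10.

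Among the secreted proteins, Ttr (ENSMUSG00000061808) encodes transthyretin, the carrier of thyroid hormone and retinol that the choroid plexus releases into the fluid. It had 16028, 16459, 9947 and 4822 mRNA counts across WT libraries 1 to 4, then 17427, 1948, 4237 and 618 across KO libraries 1 to 4. The groups overlapped, since KO library 1 held the highest level of all 8 libraries while the other 3 KO libraries lay below every WT library. In CPM, counts scaled to a common library size with TMM factors, Ttr stood at 724 ± 356 for WT and 378 ± 490 for KO (n = 4, SD). The span from the lowest to the highest library was 3.87-fold in WT and 31.3-fold in KO. The log2 fold change was -0.94 ± 0.82 (n = 4 each, SE, by edgeR adjusted p = 0.723), and the 95% interval ran from -2.74 to 0.87. The change was -2.39 without KO library 1, -0.56 without KO library 4 and -0.23 without WT libraries 1 and 2. The spread of Ttr on the log2 scale was an SD of 0.88 in WT and 2.09 in KO, where the median gene had 0.16 and 0.13.

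Enpp2 (ENSMUSG00000022425, chr15:54838901-54952892, minus strand) encodes autotaxin, a secreted enzyme that makes the lipid signal lysophosphatidic acid. Its mRNA counts were 11197, 9759, 8757 and 6172 across WT libraries 1 to 4, then 10114, 4743, 4990 and 4098 across KO libraries 1 to 4. KO library 1 lay among the WT libraries. The other 3 KO libraries lay below every WT library, as for Ttr. Enpp2 stood at 545 ± 139 CPM for WT and 366 ± 184 for KO (n = 4, SD), and its log2 fold change was -0.58 ± 0.30 (SE, by edgeR adjusted p = 0.529), which was -0.99 without KO library 1. Oligodendrocytes also make autotaxin. The summed mRNA level of 12 mature oligodendrocyte markers, none of them at 0, was 7331 to 7995 CPM in WT and 4734 to 6530 in KO, and its part in the Enpp2 values was not tested. Across KO libraries 1 to 4 that sum was 4900, 6530, 4734 and 6322 CPM. Enpp2 stood at 638, 281, 311 and 233 CPM in the same libraries, within its WT range in KO library 1 and below it in the others.

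Sostdc1 (ENSMUSG00000036169, chr12:36314139-36318452, plus strand) encodes a secreted antagonist of BMP and Wnt signals. It had 112, 320, 161 and 72 mRNA counts across WT libraries 1 to 4, then 299, 41, 56 and 17 across KO libraries 1 to 4. WT library 2 was highest and KO library 1 next, with the remaining KO libraries lowest. The log2 fold change was -0.69 ± 0.76 (n = 4 each, SE, by edgeR adjusted p = 0.792), and it was -0.10 without WT library 2 and -2.17 without KO library 1.

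Of the genes for ion and water transport, Clic6 (ENSMUSG00000022949, chr16:92485736-92541243, plus strand), a member of the chloride intracellular channel family, had the lowest unadjusted p. Its mRNA counts were 358, 440, 317 and 202 across WT libraries 1 to 4, then 330, 51, 110 and 130 across KO libraries 1 to 4. KO library 1 lay within the WT range and the other 3 KO libraries below it. Clic6 stood at 20.1 ± 6.95 CPM for WT and 9.52 ± 7.78 for KO (n = 4, SD), and its log2 fold change was -1.08 ± 0.47 (SE, by edgeR adjusted p = 0.462). The 95% interval ran from -2.12 to -0.043. The change was -1.80 without KO library 1.

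Aqp1 (ENSMUSG00000004655, chr6:55336432-55348555, plus strand), the water channel of the membrane that faces the fluid, had 102, 116, 80 and 50 mRNA counts across WT libraries 1 to 4, then 159, 21, 48 and 6 across KO libraries 1 to 4. The KO libraries held both the highest and the lowest level, 29.4-fold apart in CPM, against 2.63-fold between the WT libraries. The log2 fold change was -0.55 ± 0.70 (n = 4 each, SE, by edgeR adjusted p = 0.824), -1.81 without KO library 1 and -0.16 without KO library 4. Slc4a5 (ENSMUSG00000068323, chr6:83219828-83304945, plus strand), a sodium bicarbonate cotransporter, had 93, 94, 86 and 24 mRNA counts across WT libraries 1 to 4, then 100, 16, 39 and 2 across KO libraries 1 to 4. WT library 4 lay among the lower KO libraries, and KO library 1 was again highest. Slc4a5 lay below the RPKM minimum. With filterByExpr, edgeR's filter on counts, in its place, 16062 genes were tested and Slc4a5 had a log2 fold change of -0.89 ± 0.74 (SE, by edgeR adjusted p = 0.709).

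The membrane proteins Folr1, Kl and Prlr bind ligands from blood or fluid. Folr1 (ENSMUSG00000001827, chr7:101858331-101870788, minus strand), the receptor that takes folate into the fluid, had 97, 105, 92 and 47 mRNA counts across WT libraries 1 to 4, then 126, 16, 39 and 3 across KO libraries 1 to 4. In CPM its libraries stood in the same order as those of Ttr, with KO library 1 highest and KO library 4 lowest. The log2 fold change was -0.87 ± 0.71 (n = 4 each, SE, by edgeR adjusted p = 0.709). Kl (ENSMUSG00000058488, chr5:150952607-150993817, plus strand) encodes klotho, a membrane protein that serves as a co-receptor for a fibroblast growth factor hormone. Kl had 708, 679, 500 and 238 mRNA counts across WT libraries 1 to 4, then 655, 120, 296 and 86 across KO libraries 1 to 4. It stood at 32.5 ± 13.9 CPM for WT and 17.9 ± 16.7 for KO (n = 4, SD), and its log2 fold change was -0.86 ± 0.58 (SE, by edgeR adjusted p = 0.634). Without KO library 1 both estimates lay further from 0, at -2.15 for Folr1 and -1.68 for Kl.

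Prlr (ENSMUSG00000005268, chr15:10177238-10349180, plus strand), the prolactin receptor, had 362, 389, 198 and 92 mRNA counts across WT libraries 1 to 4, then 187, 74, 91 and 66 across KO libraries 1 to 4. Here KO library 1 lay below 3 WT libraries in CPM, and WT library 4 lay among the KO libraries. Prlr also lay below the RPKM minimum. With filterByExpr its log2 fold change was -1.31 ± 0.46 (n = 4 each, SE, by edgeR adjusted p = 0.400), and the 95% interval ran from -2.33 to -0.29. With that filter 10 of the 10 estimates were below 0, against 51.4% of all genes, and the median was -0.85 against -0.0055 over all genes.

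Otx2 (ENSMUSG00000021848, chr14:48657677-48673819, minus strand), a homeodomain transcription factor required to form the choroid plexus and also expressed in the midbrain and the retina, did not follow the others. It had 89, 83, 73 and 83 mRNA counts across WT libraries 1 to 4, then 86, 130, 30 and 71 across KO libraries 1 to 4. KO library 2, among the lowest for the other genes, was the highest here, and KO library 3 the lowest. The level was 4.96 ± 0.422 CPM for WT and 4.76 ± 2.45 for KO (n = 4, SD), with a log2 fold change of -0.058 ± 0.33 (SE, by edgeR adjusted p = 0.964). Its sign turned without KO library 3 (0.21), without KO library 4 (0.015) and without WT libraries 1 and 2 (0.047). In WT its SD on the log2 scale was 0.12, under the median gene's 0.16, and in KO it was 0.84. Over the 8 mRNA libraries, which share their groups and their scaling, log2 CPM of Ttr had a Pearson r of 0.80 (Clic6) to 0.99 (Aqp1 and Folr1) with the other 8 genes and of 0.13 with Otx2. Summed mRNA of 6 pineal and retina markers was 1.42 to 2.92 CPM in WT and 1.42 to 2.96 in KO, with Gngt1 at 0.

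**Figure D2:**
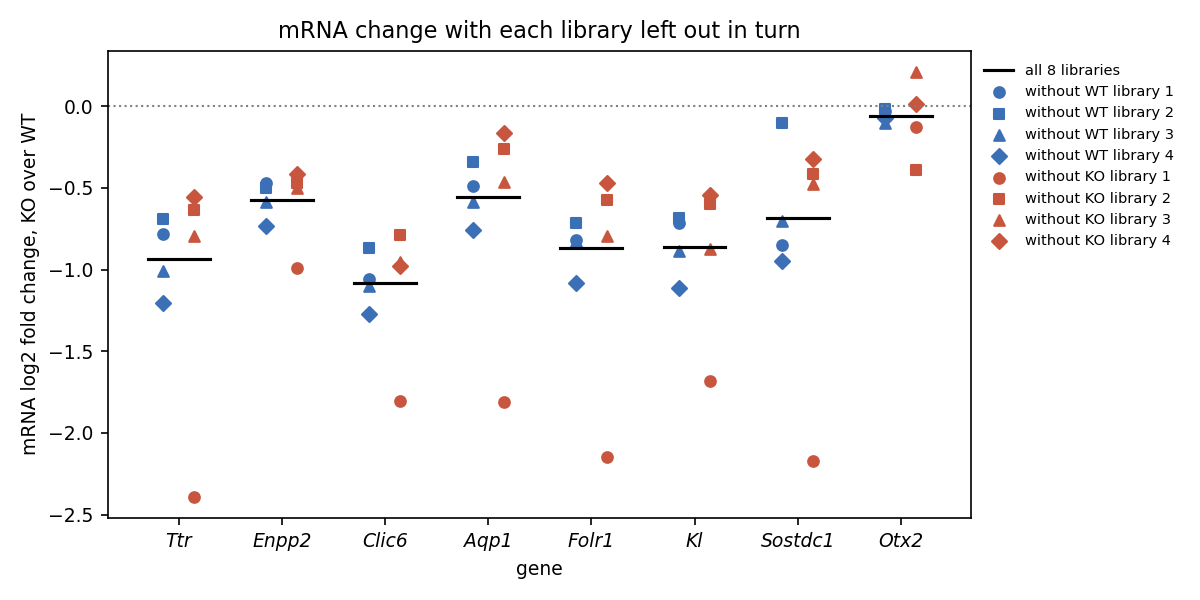
mRNA log2 fold change of KO over WT for the 8 tested genes with all 8 libraries (black bar) and with each library left out (blue, a WT library; red, a KO library; the marker shape gives its number). Leaving out KO library 1 gives the lowest value for 7 genes, down to -2.39 for Ttr, and Otx2 stays between -0.39 and 0.21.

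The genes whose mRNA was most like the mean of the 8 tested members were found by Pearson r of log2 CPM over the same 8 libraries. They were Prr32 (r = 0.98), 2900040C04Rik (0.98), Msx1 (0.97), 1500015O10Rik (0.96), Slc2a12 (0.96) and Sowahc (0.96), and the first 5 stand on the list of other choroid plexus genes below. That list was drawn up with earlier results of these data known, so the overlap is no independent support. Msx1, a homeodomain transcription factor, had 125, 130, 112 and 60 counts across WT libraries 1 to 4, then 132, 53, 75 and 30 across KO libraries 1 to 4. KO library 1 was again among the highest and KO library 4 the lowest.

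A list of 34 other genes of choroid plexus epithelium, some of which other brain cells express as well, had mRNA estimates on the same side of 0. Of its 20 tested genes 0 passed edgeR and 20 had an estimate below 0, against 51.4% of all genes. The median log2 fold change was -0.61, against -0.0053 over all genes. Lbp, which binds bacterial lipopolysaccharide, had 7.07 ± 1.26 CPM for WT and 3.11 ± 1.82 for KO (n = 4, SD, edgeR adjusted p = 0.337). Vat1l stood at 144 ± 39.1 CPM in WT and 92.9 ± 27.4 in KO. Slc29a4, a transporter of monoamines, and Cab39l had log2 fold changes of -0.54 ± 0.22 and -0.28 ± 0.12 (SE). The list's median was -0.20 over 15 tested genes without WT libraries 1 and 2, and -1.01 over 21 without KO libraries 1 and 4. Some of the 20 thus reached the RPKM minimum only with WT libraries 1 and 2.

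Markers of ependyma, the ciliated lining of the ventricles, stood in another order across the libraries. Of 18 listed genes, 11 were tested and all 11 had an estimate below 0, against 51.4% of all genes. Of the 11, 0 passed, and the median was -0.83. Their summed mRNA level was 47.4, 70.7, 53.3 and 61.8 CPM across WT libraries 1 to 4, then 39.9, 21.9, 36.5 and 36.1 across KO libraries 1 to 4, so that the groups did not overlap, and Mia was at 0. Of the 8 tested choroid plexus members, 0 had every KO library below every WT library, as did 2.74% of all single genes tested, a share that does not apply to a sum of markers. KO library 1, with the highest Ttr level of all, thus lay below every WT library for ependyma. Ccdc153, a gene of motile cilia, had the lowest p (-1.71 ± 0.37, SE, by edgeR adjusted p = 0.337), followed by Rarres2 (-0.71 ± 0.18), Fam183b (-0.93 ± 0.26) and Dynlrb2 (-1.21 ± 0.36). Hypothalamus markers summed to 63.8 to 139 CPM in WT libraries 1 to 3, to 8.35 in WT library 4 and to 5.69 to 13.5 in KO, with Kiss1 at 0. Ttr too stood higher in WT libraries 1 to 3 (610 to 1066 CPM) than in WT library 4 (276 CPM). In KO library 1 these markers were low (13.2 CPM), where Ttr was highest. Leptomeninges and fibroblast markers summed to 162 to 288 CPM in WT and 158 to 206 in KO. Of these sums, Pdgfra alone had a mean of 61.8 CPM in WT and 51.9 in KO. Pituitary markers were near 0, at 1.26 to 1.81 CPM in WT and 0.810 to 2.05 in KO, with Prl, Cga and Fshb at 0. The part of these cell types in the values of the choroid plexus genes was not tested.

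Transporters of fluid secretion that other brain cells express as well were split in sign. Of 21 listed, 20 were tested in mRNA, 11 had an estimate below 0 and 9 above, 0 passed, and the median was -0.020. Slc12a2, the sodium, potassium and chloride cotransporter, had 97.5 ± 8.36 CPM for WT and 79.4 ± 5.83 for KO (n = 4, SD, edgeR adjusted p = 0.337). Slc4a2, an anion exchanger, had a log2 fold change of -0.39 ± 0.11 (SE, by edgeR adjusted p = 0.337). Kcna1, a potassium channel, stood at 89.0 ± 16.7 CPM in WT and 109 ± 8.80 in KO. For 39 genes that bind, carry or receive what the 10 genes handle, 27 were tested, 15 were below 0 and 12 above, 0 passed, and the median was -0.020. Lpar1, a receptor for lysophosphatidic acid, had the values 41.0 ± 3.46 CPM for WT and 34.2 ± 2.34 for KO (n = 4, SD). Clic4, a relative of Clic6, had a log2 fold change of -0.30 ± 0.087, and Clic5 of 0.32 ± 0.15 (SE). Prl, the ligand of Prlr, was at 0 in both library kinds.

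Footprints on choroid plexus transcripts came mostly from Ttr and Enpp2. Ttr took 56.6% to 72.5% of the 10 genes' footprint counts in a library and had the third highest mean footprint RPKM of all protein-coding genes. Only Ttr, Enpp2 and Kl passed filterByExpr. Of these 3, 0 passed edgeR, as did 0% of the 8476 genes tested, and 0 had an unadjusted p under 0.05, against 5.52% of all genes. Estimates of 2 of the 3 were below 0, against 50.4% of all genes. The count was 5 of 7 with a mean RPKM of 1 as the filter, 8 of 10 with no filter and 1 of 3 without WT libraries 1 and 2. DESeq2 also called 0 of the 3.

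Ttr had 3422, 4994, 3387 and 1953 footprint counts across WT libraries 1 to 4, then 678, 2470, 522 and 950 across KO libraries 1 to 4. After scaling for depth these were 1938, 1549, 1240 and 736 CPM in WT and 828, 1304, 1003 and 932 CPM in KO. The KO libraries lay close together and inside the WT range, unlike in mRNA. The log2 fold change was -0.42 ± 0.29 (n = 4 each, SE, by edgeR adjusted p = 0.881), and the 95% interval ran from -1.04 to 0.19. The change was 0.036 without WT libraries 1 and 2. The SD of log2 footprint CPM was 0.60 in WT, above the median gene's 0.29. In KO it was 0.28, below the median gene's 0.42, while in KO mRNA it was 2.09.

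Enpp2 had 1421, 1709, 1456 and 1384 footprint counts across WT libraries 1 to 4, then 345, 1013, 205 and 435 across KO libraries 1 to 4, or 597 ± 138 CPM for WT and 444 ± 61.9 for KO (n = 4, SD). In CPM, WT library 1 stood above all others at 805, and KO library 2, at 535, was the only KO library above the lowest WT library. The log2 fold change was -0.43 ± 0.20 (SE, by edgeR adjusted p = 0.881), and it was -0.25 without WT library 1. The summed footprint level of the 12 oligodendrocyte markers was 2608 to 3107 CPM in WT and 1828 to 2338 in KO, and its part in the Enpp2 footprints was not tested. Kl had 50, 106, 48 and 44 counts across WT libraries 1 to 4, then 25, 40, 19 and 13 across KO libraries 1 to 4. The groups overlapped in CPM and the log2 fold change was 0.0155 ± 0.34 (SE, by edgeR adjusted p = 0.996), with a sign that turned to -0.019 under upper quartile scaling.

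**Figure D3:**
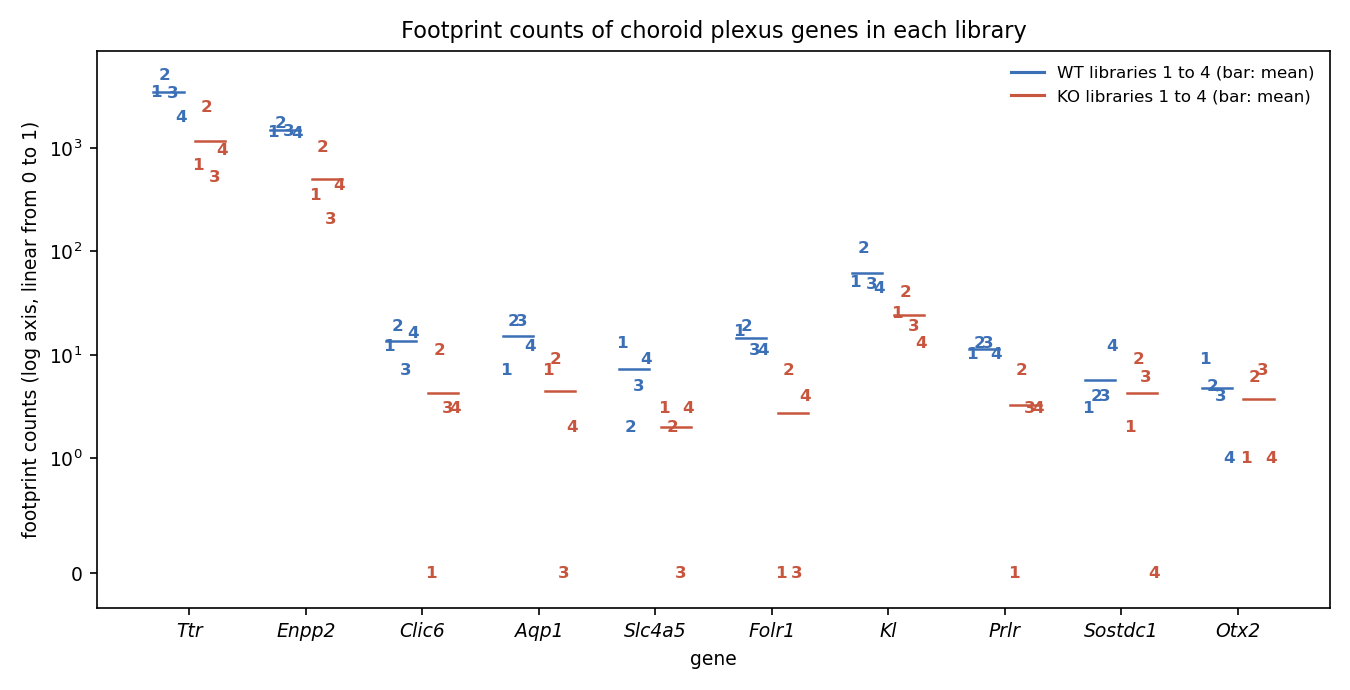
Footprint counts of each gene, not scaled for depth, on an axis that is logarithmic above 1 and linear from 0 to 1, where each digit is the number of a library (blue WT, red KO) and each bar a group mean of 4 libraries. Ttr and Enpp2 hold 205 to 4994 counts per library, and the 7 genes that were not tested hold 0 to 21.

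The other 7 genes had 34 to 79 footprint counts over all 8 libraries and did not pass the filter on counts. Folr1 had 17, 19, 11 and 11 across WT libraries 1 to 4, then 0, 7, 0 and 4 across KO libraries 1 to 4. All 4 KO values lay below all 4 WT values in CPM, as for 2.04% of the genes that passed the filter. The limit that a count of 0 allows (3 counts) was 3.66 CPM in KO library 1, below the lowest WT library at 4.03, and 5.77 in KO library 3, which lies among the WT libraries. These limits cover counting error only. With a mean RPKM of 1 as the footprint filter in its place, 10792 genes were tested and Folr1 had a log2 fold change of -1.29 ± 0.75 (SE, by edgeR adjusted p = 0.902). Aqp1 had 7, 21, 21 and 12 footprint counts across WT libraries 1 to 4, then 7, 9, 0 and 2 across KO libraries 1 to 4. KO library 1 had the highest Aqp1 level in CPM, as it did in mRNA. Prlr had 10, 13, 13 and 10 counts across WT libraries 1 to 4, then 0, 7, 3 and 3 across KO libraries 1 to 4. Clic6 had 12, 19, 7 and 16 counts across WT libraries 1 to 4, then 0, 11, 3 and 3 across KO libraries 1 to 4. In both genes the groups overlapped in CPM. KO library 1 had 0 counts in both, but its limit of 3.66 CPM lies above KO library 4 (2.94 CPM in both genes), so its rank is not settled.

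Sostdc1 had 3, 4, 4 and 12 footprint counts across WT libraries 1 to 4, then 2, 9, 6 and 0 across KO libraries 1 to 4. Slc4a5 had 13, 2, 5 and 9 counts across WT libraries 1 to 4, then 3, 2, 0 and 3 across KO libraries 1 to 4. Otx2 had 9, 5, 4 and 1 counts across WT libraries 1 to 4, then 1, 6, 7 and 1 across KO libraries 1 to 4. In CPM the groups of all these 3 genes overlapped. Summed footprints of the 6 pineal and retina markers were 3.66 to 61.1 CPM in WT and 16.4 to 154 in KO, with Aanat and Asmt at 0. Few genes made the high sums. Of the 6, 4 were at 0 in WT library 2 (61.1 CPM), 3 in KO library 1 (154 CPM) and 5 in KO library 4 (42.2 CPM). The mRNA of these markers summed to at most 2.96 CPM in any library. The part of these markers in the Otx2 values was not tested. The list of 34 other choroid plexus genes had 9 tested in footprints, with 2 below 0, 7 above 0, 0 passing edgeR and a median log2 fold change of 0.19. In translational efficiency 12 of the 34 were tested, 11 above 0, with 0 passing and a median of 0.60. Ependyma markers summed to 31.7 to 40.8 footprint CPM in WT and 25.7 to 52.0 in KO, and 1 of the 18 was tested.

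The transcripts differed in how many footprints they carried for their mRNA. Dividing the mean footprint RPKM by the mean mRNA RPKM over all 8 libraries of each kind gave 2.10 for Ttr, a ratio at or above that of 98.8% of the 9673 genes whose mean RPKM reached 1 in both kinds. The median gene had 0.461. Both RPKM values use the same gene length, which cancels in this ratio. The coding share of each transcript was not taken into account, so the ratio does not rank genes by translation alone. Enpp2 had a ratio of 1.11 and Aqp1 1.03. Kl had 0.947 over all libraries, with 0.715 in WT and 1.36 in KO, and Folr1 had 0.941, with 1.11 in WT and 0.642 in KO. Sostdc1 had 0.401 over all libraries, with 0.210 in WT and 0.703 in KO. These values rest on 0 to 12 footprint counts per library. In libraries of the same name the Sostdc1 ratio ran from 0.058 to 1.06 in WT and from 0 to 3.18 in KO. Clic6 had 0.293 and lay below the median gene in both genotypes. The ratios of Folr1 and Clic6 rest on 0 to 19 footprint counts per library. The order of mean mRNA level in RPKM was Ttr (444), Enpp2 (77.5), Sostdc1 (4.63), Clic6 (3.72), Kl (2.66), Folr1 (1.73), Aqp1 (1.68), Otx2 (1.13), Prlr (0.716) and Slc4a5 (0.593). Ttr lay above Enpp2 in every mRNA library but KO library 4, where it had 28.5 RPKM and Enpp2 39.9. Both lay above the other 8 genes in each library, and the neighbours from Sostdc1 on lay within each other's spread.

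In Ttr and Enpp2 the footprint and mRNA libraries of the same name did not follow each other in KO. In Kl, KO libraries 1 and 3 stood above KO libraries 2 and 4 in both kinds, with KO library 4 lowest. For Ttr the ratio of footprint RPKM to mRNA RPKM was 2.00, 1.42, 1.98 and 2.58 across WT libraries 1 to 4, then 0.734, 10.9, 3.65 and 25.8 across KO libraries 1 to 4. KO library 1 was highest in mRNA and next to lowest in footprints, and KO library 4 was lowest in mRNA and sixth in footprints. For Enpp2 the ratio was 0.819 to 1.43 in WT and 0.643, 1.83, 1.22 and 1.78 in KO libraries 1 to 4. For Kl it was 0.558 to 1.18 in WT and 0.720, 2.86, 1.90 and 2.54 in KO libraries 1 to 4. In all 3 genes KO libraries 2 and 4 had the highest ratios. Whether a footprint and an mRNA library of 1 name came from the same piece of tissue is not given in the sources used here.

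**Figure D4:**
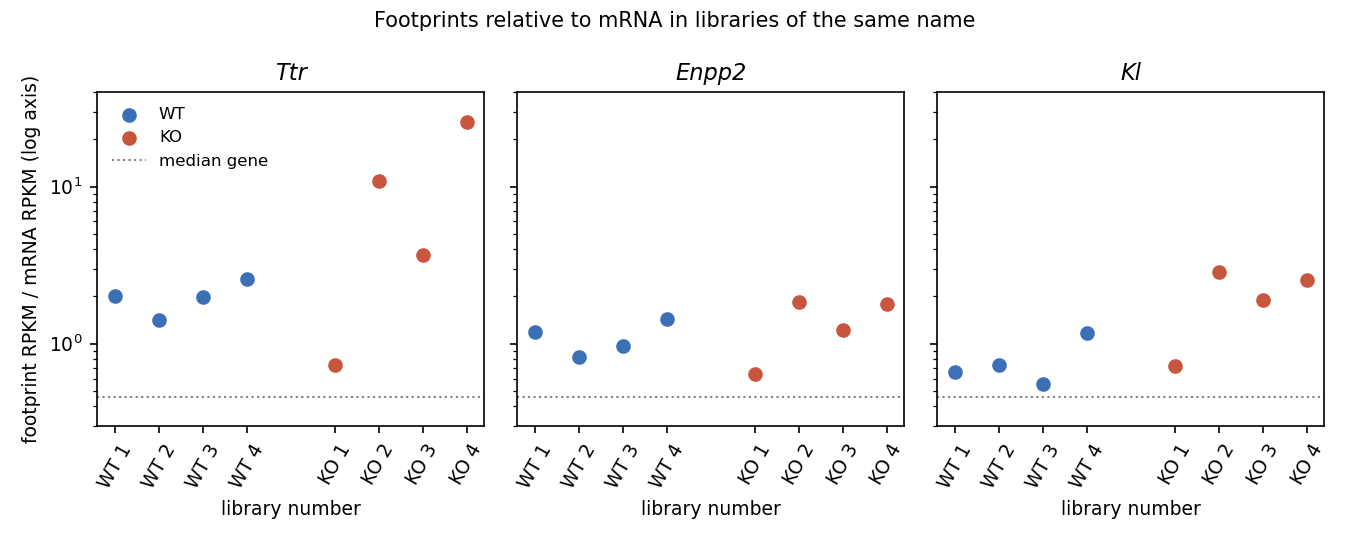
Ratio of footprint RPKM to mRNA RPKM for Ttr, Enpp2 and Kl in each pair of libraries of the same name, on a log axis (blue WT, red KO), with the median gene at 0.461 as a dotted line. The WT values of Ttr run from 1.42 to 2.58 and its KO values from 0.734 to 25.8.

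The change in translational efficiency, the footprint change relative to the mRNA change, was the genotype by library kind interaction, fitted with edgeR to both kinds together. Of the 7 choroid plexus genes that reached this mean RPKM in both kinds, 0 passed, as did 0% of the 9673 genes tested, and 0 had an unadjusted p under 0.05, against 10.9% of all genes. DESeq2 also called 0 of the 7. Estimates were above 0 for 6 genes and below 0 for 1, Folr1, against 50.2% of all genes below 0, with a median log2 change of 0.52 against -0.0027 over all genes. Ttr had 0.52 ± 0.82 (n = 4 each, SE, by edgeR adjusted p = 0.867), and the 95% interval ran from -1.18 to 2.23. Without the KO libraries numbered 1 the Ttr estimate was 2.06. Kl had 0.85 ± 0.77 (edgeR adjusted p = 0.728), Sostdc1 1.55 ± 1.43, Clic6 0.67 ± 0.94, Enpp2 0.17 ± 0.33, Aqp1 0.086 ± 1.08 and Folr1 -0.31 ± 1.24 (SE). The widths of these intervals allow changes in either direction for all 7. The median was -0.034 without KO libraries numbered 2 and 1.54 without those numbered 1.

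**Figure D5:**
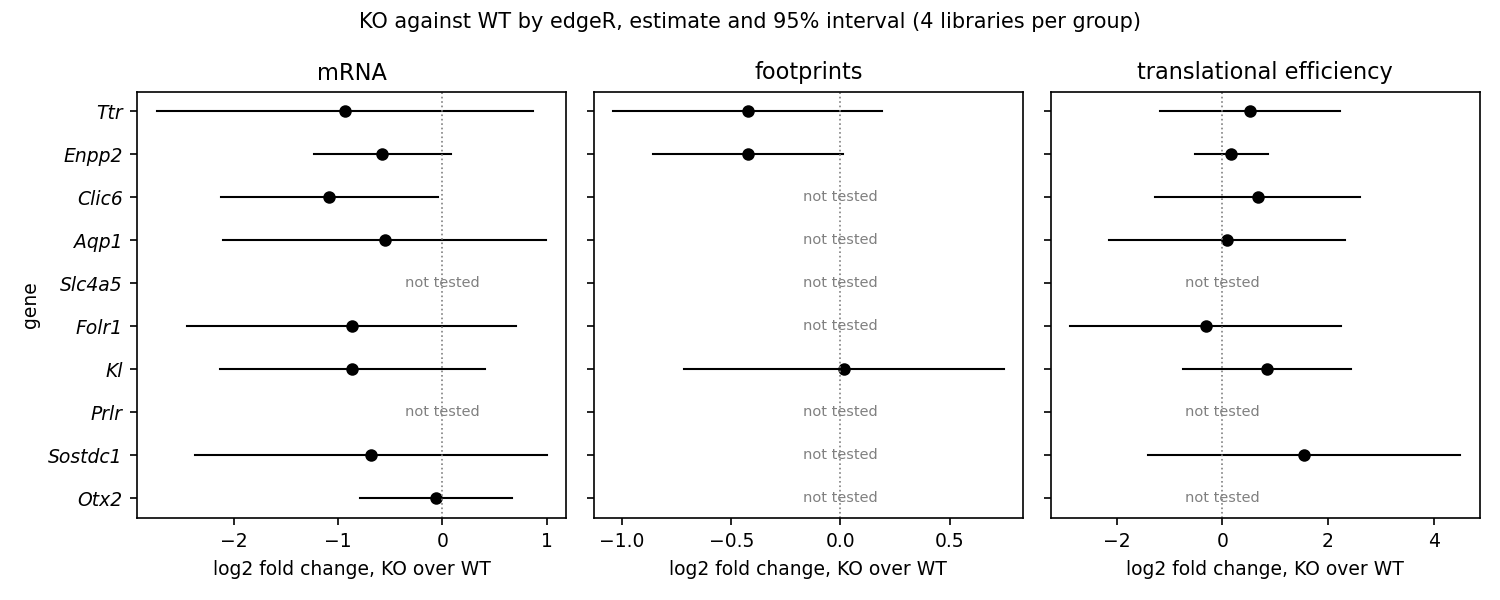
Log2 fold change of KO over WT with its 95% interval by edgeR for mRNA, footprints and translational efficiency (4 libraries per group and kind), with genes that did not pass the filter marked as not tested. Every interval includes 0 except that of Clic6 in mRNA, -2.12 to -0.043, whose adjusted p was 0.462.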

How the data were processed

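Ribosome footprints and mRNA of brain were measured in 8 libraries each, 4 WT and 4 KO, and mRNA columns were matched to samples by name. The authors deposited raw counts of both kinds. Their deposited RPKM values equal these counts over gene length and 1 library size per column, 0.687 to 1.54 times the column's total. TopHat2 and mm10 are named in the submitters' processing notes, and the counter, annotation and strand setting are not given in the sources used here.

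Counts were fitted with edgeR 4.0.16 (R 4.3.3), TMM sizes and the quasi-likelihood test, tested on simulated data. In simulated mRNA, footprints and translational efficiency, 53%, 1% and 5% of the genes changed 1.5-fold were called. For genes changed 3-fold these shares were 94%, 76% and 71%. Of the calls, 6.37%, 7.23% and 17.4% were false, so small changes in footprints and translational efficiency would mostly be missed. The changed genes were drawn at random from those tested, so these shares describe genes at large. In KO mRNA the tested members varied more than the median gene (Ttr SD 2.09 against 0.13 on the log2 scale). The mRNA shares therefore do not carry over to them, and larger changes could be missed as well. Genes entered at a mean RPKM of at least 1 (mRNA, and both kinds for translational efficiency) or by filterByExpr with a minimum count of 10 (footprints), with Benjamini-Hochberg adjustment over all genes tested. Alternatives were DESeq2 1.42.0, limma 3.58.1 on log2 RPKM with pseudocounts of 0.1 and 1, other scalings and filters, protein-coding genes only, a replicate block and libraries left out. No batch is given.

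The genes, lists (9, with 164 entries) and tests were chosen with earlier results of these data known. Named genes are the members, up to 4 per list by lowest mRNA p, the 6 most alike in mRNA by log2 CPM (prior count 2), and Nsun5, and some genes that this rule picks are not reported here. Genes named for being at 0 were chosen after their values were seen.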

Additional observations from a re-analysis of the deposited data

Results flagged for a closer look

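Of 26 groups of 4 libraries tested, for genes with at least 80 counts, 2 held a library whose gap to its nearest neighbour took most of the group's range, on the log2 CPM scale. Chance flags about 1 in 20 groups. For Slc4a5 mRNA in WT, library 4 (24 counts) lay apart from the other 3, with a gap of 0.901 of the range. For Enpp2 footprints in WT, library 1 (1421 counts) lay apart on the high side, with a gap of 0.951 of the range.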

How the results depend on the processing

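No alternative called any of the choroid plexus genes, in 19 alternatives each for mRNA and footprints and 20 for translational efficiency. For mRNA of Folr1, Otx2, Aqp1 and Sostdc1, DESeq2 gave no adjusted p and so could not call them. Over all genes, where the fits above called 0, DESeq2 called 87 in mRNA, 4 in footprints and 150 in translational efficiency, the fits with no filter 24, 86 and 2, and protein-coding genes only 3 in footprints. Leaving out 1 library gave 0 to 2 calls in mRNA and 0 to 4 in translational efficiency. Same-number libraries showed no pairing (correlation of deviations between WT and KO -0.24 to 0.03 in mRNA and -0.25 to 0.08 in footprints), and a replicate block gave 0 calls in mRNA and footprints and 1 in translational efficiency. Added after seeing the data, a replicate block of the library name gave 5 calls in translational efficiency, and leaving out KO libraries 1 and 4 gave 1 in mRNA.

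Some signs turned. Leaving out 1 library moved Otx2 mRNA between -0.39 and 0.21, above 0 without KO library 3 (0.21) or 4 (0.015). It moved Kl footprints between -0.16 and 0.25, below 0 without WT library 3 or 4 or KO library 1 or 3. In translational efficiency it moved Folr1 between -1.17 and 1.28 (above 0 without KO library 1), Aqp1 between -0.33 and 0.89 (below 0 without WT library 1 or 2 or KO library 2 or 4), Clic6 between -0.22 and 1.71 and Enpp2 between -0.034 and 0.60 (both below 0 without KO library 2). Without WT libraries 1 and 2, Otx2 mRNA was 0.047, Ttr footprints 0.036 and Aqp1 translational efficiency -0.45. Kl footprints were -0.019 under upper quartile scaling and -0.027 with no filter. Folr1 translational efficiency was 0.13 and 0.39 under the replicate block of number and of name and 0.58 without KO libraries 1 and 4, and Aqp1 -0.17 by limma with a pseudocount of 0.1. The replicate block moved the median mRNA change of the 8 tested genes from -0.77 to -1.19. The cause was not tested. In footprints the filter on counts left 3 of the 10 genes, a mean RPKM of 1 left 7 and no filter all 10.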

Other observations

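Hypothalamus markers summed to 8.35 to 139 CPM of mRNA in WT and 5.69 to 13.5 in KO. In footprints they summed to 5.27 to 73.1 CPM in WT and 74.4 to 121 in KO. Every KO library thus lay above every WT library in footprints, but WT library 1 (73.1) and KO library 2 (74.4) almost met. The sums held as few as 17 counts (WT library 2) and 39 counts (KO library 3). The share of all genes in this order was not taken. Of the 12 listed, 6 reached a mean mRNA RPKM of 1, largely through WT libraries 1 to 3, so their count below 0 supports nothing, and 0 passed edgeR. With no filter 11 were tested, all below 0 (median -1.92 on the log2 scale), and without WT libraries 1 and 2 there were 3, of which 2 were below 0 and 1 above. Named by lowest p were Avp, the vasopressin precursor (-4.43 ± 1.02), Gal, the galanin precursor (-2.19 ± 0.50), Pmch (-5.59 ± 1.67) and Hcrt (-5.45 ± 1.69), values with SE. In footprints 2 were tested, with 2 above 0. Of 12 tested leptomeninges and fibroblast markers, 8 were below 0 in mRNA (median -0.24) and 0 passed. Without WT library 1 there were 6 below 0 and 6 above (median 0.015). Without WT library 2 there were 12 below and 1 above (median -0.36). Lum, a matrix proteoglycan, had -0.75 ± 0.30, Pdgfra -0.25 ± 0.11, Col1a1 -0.41 ± 0.19 and Slc6a13 -0.30 ± 0.21. All 12 mature oligodendrocyte markers were below 0 in mRNA (median -0.42), against 51.4% of all genes, and 0 passed. Mal had -0.47 ± 0.094 (edgeR adjusted p = 0.337), Mobp -0.43 ± 0.091, Ugt8a -0.39 ± 0.094 and Cldn11 -0.42 ± 0.11.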
